A study of Rattus norvegicus with 18 samples.

Results

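The 10 genes Pla2g4a, Ptgs1, Ptgs2, Ptges, Ptges2, Ptgds, Hpgds, Tbxas1, Alox5 and Alox5ap encode enzymes that make prostaglandins, thromboxane and leukotrienes, together with the helper protein of 5-lipoxygenase. They were found by symbol, and all 10 were present among the 17307 gene symbols counted in astrocytes and the 17327 counted in microglia. RNA was sequenced from primary cortical cultures of newborn Sprague-Dawley rats of wild-type genotype (WT). Microglia had been shaken off mixed glial cultures and astrocytes were the layer that remained, and both cell types were kept without serum before treatment. Each cell type was left untreated (control) or received fibrils of the amyloid peptide Aβ42 or of the shorter Aβ40, all read at 24 h, with 3 replicates a group and 18 libraries in all. The fibrils were grown synthetically from seeds, so they stand in for plaque material rather than being taken from it. The labels do not say whether replicates came from separate cultures, and p-values may therefore measure technical spread alone.

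Prostanoid synthesis starts when cytosolic phospholipase A2 (Pla2g4a) frees arachidonic acid from membranes. The cyclooxygenases Ptgs1 (COX-1, largely constitutive) and Ptgs2 (COX-2, inducible) turn it into prostaglandin H2, from which terminal synthases make PGE2 (Ptges, inducible, and Ptges2), PGD2 (Ptgds and Hpgds) or thromboxane A2 (Tbxas1). In the other branch, 5-lipoxygenase (Alox5) with its activating protein FLAP (Alox5ap) starts leukotriene synthesis. In the brain these lipids take part in inflammation, fever and blood flow, and microglia are known as a source of several of them.

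Counts on genes ran from 3674043 to 19013919 per library in astrocytes and from 2271834 to 22274367 in microglia, and 3 counts, taken as the detection limit, equalled 0.158 to 0.816 CPM and 0.135 to 1.32 CPM. Values below are scaled CPM, a library's counts set to a common total of reads on genes after TMM scaling within the cell type, and intervals of pooled count ratios cover counting error only. They follow a gene across groups and are not corrected for transcript length, so levels of different genes are not compared. The labelled cell types carried their markers: the 8 astrocyte markers summed to 8578 to 10510 CPM in untreated astrocytes and 239 to 268 CPM in untreated microglia, and the 8 microglial markers to 238 to 279 and 5053 to 5817 CPM. In treated astrocytes the astrocyte markers summed to 5586 to 5822 CPM with Aβ42 and 6193 to 6517 CPM with Aβ40. Of the 8, 2 were higher and 5 lower than control with Aβ42, and 3 higher and 5 lower with Aβ40. Astrocyte cultures also carried 8 oligodendrocyte lineage markers, at 1726 to 2574 CPM untreated, 1272 to 1372 CPM with Aβ42 and 1346 to 1366 CPM with Aβ40. Microglia Aβ42 replicate 1 stood apart: its log2 CPM correlated at 0.964 with the other Aβ42 libraries and at 0.983 with the Aβ40 libraries, and results that it moved are also given without it. All 9 tested members kept their direction and passed against control without it. The other Aβ42 libraries had 22274367 and 17687416 counts on genes, and the microglia control libraries 5098145 to 8249339. In every comparison of Aβ42 microglia made without replicate 1, fibril and sequencing depth therefore cannot be told apart. Astrocyte control replicate 2 correlated least with its own group (0.949), and the files of this library and of astrocyte Aβ42 replicate 3 carry names of another style.

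The promoters of Ptgs2 and Ptges are shown because these were the members that rose most, and that of Ptgs1 as the constitutive counterpart of Ptgs2. Each runs from 250 bases before to 50 bases after the start of transcription, 5′ to 3′, from RefSeq on rat build GRCr8. They lie at chr13:64713813-64714112 on the plus strand (Ptgs2), chr3:34586938-34587237 on the minus strand (Ptges) and chr3:39981169-39981468 on the plus strand (Ptgs1). Capitals mark matches on either strand to 6 motifs: C/EBP (TTNNGNAAT), E-box (CACGTG), EGR (GCGGGGGCG), GC box (GGGCGG), AP-1 (TGANTCA) and TATA box (TATAAA).
Ptgs2: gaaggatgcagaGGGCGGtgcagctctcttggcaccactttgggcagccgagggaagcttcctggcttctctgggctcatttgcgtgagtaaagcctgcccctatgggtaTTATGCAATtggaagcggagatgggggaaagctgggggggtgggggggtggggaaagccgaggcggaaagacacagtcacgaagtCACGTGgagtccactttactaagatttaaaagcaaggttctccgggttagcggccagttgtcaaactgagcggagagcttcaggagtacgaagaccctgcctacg
Ptges: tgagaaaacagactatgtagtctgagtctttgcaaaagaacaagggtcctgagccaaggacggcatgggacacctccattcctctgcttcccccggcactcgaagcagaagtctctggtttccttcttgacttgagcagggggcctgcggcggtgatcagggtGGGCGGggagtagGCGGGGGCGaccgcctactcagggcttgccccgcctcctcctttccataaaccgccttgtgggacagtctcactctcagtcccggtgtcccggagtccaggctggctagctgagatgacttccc
Ptgs1: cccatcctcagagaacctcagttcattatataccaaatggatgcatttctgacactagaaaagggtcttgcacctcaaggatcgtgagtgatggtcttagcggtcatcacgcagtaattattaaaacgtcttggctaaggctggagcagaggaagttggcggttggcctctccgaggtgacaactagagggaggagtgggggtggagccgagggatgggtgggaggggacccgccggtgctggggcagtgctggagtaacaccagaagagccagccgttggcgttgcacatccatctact
The Ptgs2 window holds a C/EBP match that starts at base -140 from the start site, an E-box at -55 and a GC box at -238. The Ptges window holds an EGR match at -74 and a GC box at -87, with no overlap between them, and the Ptgs1 window holds none of the 6. Among all 33469 rat promoters of this length, a C/EBP match was found in 12.3%, an E-box in 6.42%, an EGR match in 2.73%, a GC box in 33.1%, an AP-1 match in 7.33% and a TATA box in 14.2%. Of the other members with a promoter sequence, Ptgds has 2 overlapping GC box matches, Alox5 has a GC box, Pla2g4a a TATA box, and Tbxas1 a TATA box and an AP-1 match. These matches are letters in a window and not measured binding sites.

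**Figure D1:**
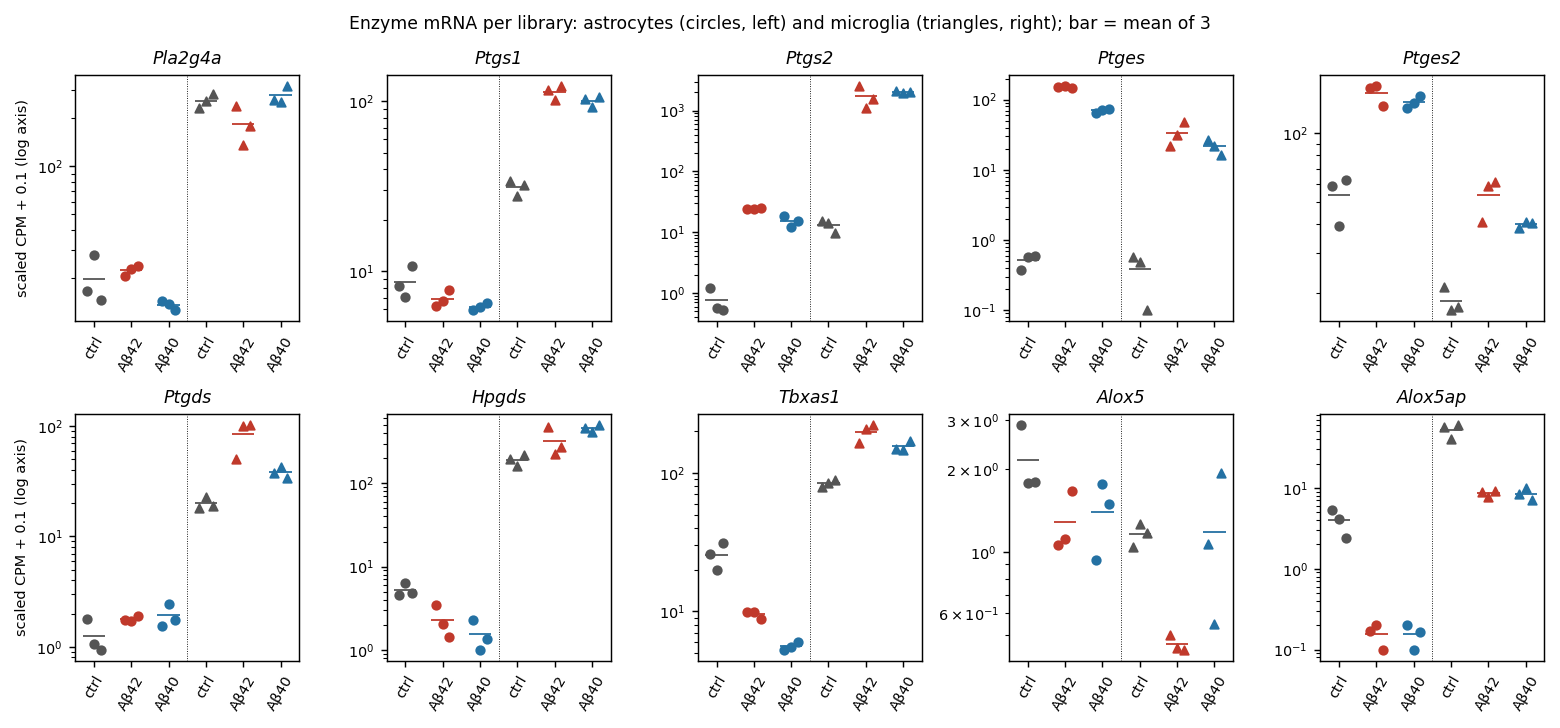
Scaled CPM plus 0.1 on a log axis for each member in the 18 libraries, astrocytes as circles and microglia as triangles, with a bar at the mean of 3 replicates. Ptgs2 and Ptges rose in both cell types, Ptgs1, Hpgds and Tbxas1 rose only among the microglia panels, and Alox5ap fell in both.

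Aβ42 fibril-treated astrocytes up-regulated Ptgs2, Ptges and Ptges2 and down-regulated Hpgds, Tbxas1 and Alox5ap, so 6 of the 10 members passed the test (edgeR quasi-likelihood test, Benjamini-Hochberg adjusted p under 0.05), where 37% of the 11690 tested genes passed. Aβ40 fibril-treated astrocytes changed the same 6 members in the same directions, against a background of 33.3%; both comparisons share the control libraries. Ptgs1, Ptgds, Pla2g4a and Alox5 did not pass in either. The median log2 fold change over the members was -0.09 with Aβ42 and -0.51 with Aβ40, beside -0.0047 and 0.0017 over all tested genes. The 3 rises and 3 falls stood beside shares of 16.5% higher and 20.4% lower genes with Aβ42, and 14.9% and 18.4% with Aβ40. The libraries of a fibril group did not overlap control in 7 members with Aβ42 and 9 with Aβ40, where 45.7% and 43.2% of genes had no overlap.

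In microglia more of the pathway rose. With Aβ42 fibrils Ptgs1, Ptgs2, Ptges, Ptges2, Ptgds, Hpgds and Tbxas1 were up-regulated and Pla2g4a and Alox5ap down-regulated, which is 9 of the 9 members tested, where 53.7% of 10837 genes passed. With Aβ40 fibrils the same 7 rose and Alox5ap fell, 8 of 9, where 41% passed. Alox5 was too low to be tested. The 7 rises stood beside 27.1% of genes higher and 26.6% lower with Aβ42, and 19.6% and 21.4% with Aβ40, and the members' median log2 fold change was 1.56 and 1.10, beside 0.0096 and 0.0054 over all genes. The libraries did not overlap control in 8 of 9 members with each fibril, where 54% and 59.5% of genes had no overlap.

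**Figure D2:**
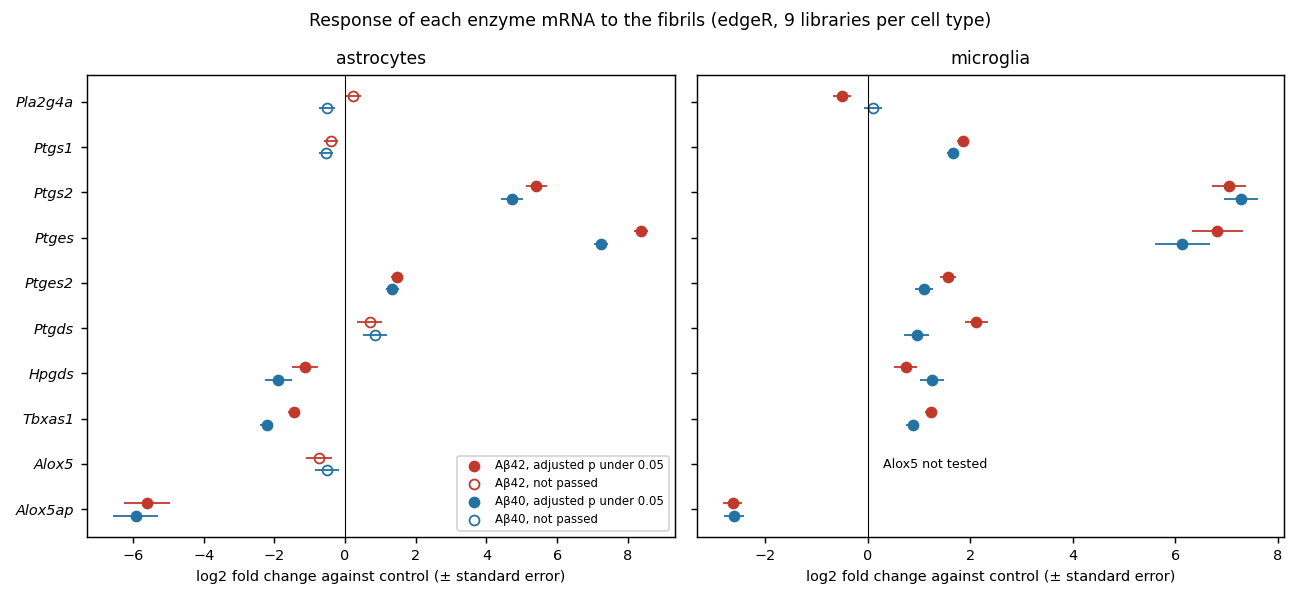
Log2 fold change against control, with its standard error, for each member with Aβ42 (red) and Aβ40 fibrils (blue), filled where the adjusted p was under 0.05. In astrocytes Ptges stands furthest right, at 8.37 and 7.24, and Alox5ap furthest left, at -5.60 and -5.92. In microglia Ptgs2 stands furthest right, at 7.05 and 7.28.

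Pla2g4a, which supplies the substrate, passed the test only in microglia with Aβ42, among the 4 comparisons with control. In astrocytes it read 16.4, 27.5 and 14.4 CPM in the control libraries, 20.3, 22.6 and 23.7 CPM with Aβ42 and 14.2, 13.5 and 12.4 CPM with Aβ40. The Aβ42 libraries lay within the control range and the Aβ40 libraries just below it, and neither comparison passed (log2 fold change 0.22, SE 0.22, adjusted p = 0.48, and -0.51, SE 0.22, adjusted p = 0.104, by edgeR). A different control library decided each outcome: without control replicate 2 the Aβ42 value was 0.56 (adjusted p = 0.00788), and without control replicate 3 the Aβ40 value was -0.73 (adjusted p = 0.0235). In microglia Pla2g4a was at 233, 256 and 285 CPM untreated, 238, 136 and 179 CPM with Aβ42 and 261, 253 and 319 CPM with Aβ40. Aβ42 replicate 1 lay inside the control range and the other Aβ42 libraries below it, and the fall was 0.50 on the log2 scale (log2 fold change -0.50, SE 0.18, adjusted p = 0.0326), whereas the Aβ40 value of 0.10 did not pass (adjusted p = 0.684). Without Aβ42 replicate 1 the fall became -0.72 (adjusted p = 9.56e-05). It did not pass without control replicate 1, 2 or 3 (adjusted p = 0.0523, 0.0826 and 0.137) or without Aβ42 replicate 2 or 3 (0.136 and 0.0831), nor in a fit of the compared groups alone (0.0739).

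Ptgs2, the inducible cyclooxygenase, rose in every fibril-treated library of both cell types. Astrocytes held 1.11, 0.479 and 0.422 CPM of it untreated, from 4, 2 and 6 counts. With Aβ42 fibrils the values were 24.2, 24.0 and 24.6 CPM, and with Aβ40 fibrils 18.2, 12.04 and 15.1 CPM. The groups did not overlap, and the log2 fold change was 5.41 (SE 0.31, adjusted p = 2.43e-07) and 4.72 (SE 0.31, adjusted p = 9.16e-07). Because the control counts were few, the ratio of pooled counts is also given: 44.4 with a 95% interval of 25.3 to 86.4 for Aβ42, and 26.5 (15.0 to 51.5) for Aβ40. Untreated microglia held 15.3, 13.9 and 9.61 CPM. They reached 2560.2, 1087 and 1529 CPM with Aβ42 and 2067, 1976 and 2006 CPM with Aβ40 fibrils. All treated libraries lay far above control, the Aβ40 libraries close together and the Aβ42 libraries spread over more than their width on both sides of them. The log2 fold change was 7.05 (SE 0.33, adjusted p = 5.74e-09) and 7.28 (SE 0.33, adjusted p = 5.83e-09), and the Aβ42 value was 6.64 (adjusted p = 3.25e-14) without replicate 1.

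Ptgs1, the constitutive form, followed another pattern. Astrocyte values were 8.07, 6.94 and 10.7 CPM untreated, 6.18, 6.57 and 7.69 CPM with Aβ42 and 5.82, 6.04 and 6.44 CPM with Aβ40. The Aβ42 libraries overlapped control (log2 fold change -0.39, SE 0.19, adjusted p = 0.144) and the Aβ40 libraries lay below it without passing (-0.54, SE 0.19, adjusted p = 0.0524). Without control replicate 2 both passed, at -0.53 (adjusted p = 0.0308) and -0.68 (adjusted p = 0.00919), and scaling by library totals alone also took the Aβ40 value past the threshold (adjusted p = 0.0395). In microglia Ptgs1 went from 34.0, 27.8 and 32.2 CPM to 117, 102 and 123 CPM with Aβ42 and 103, 91.9 and 105 CPM with Aβ40. The treated libraries of both fibrils were clear of control, and the log2 fold change was 1.86 (SE 0.12, adjusted p = 1.09e-07) and 1.67 (SE 0.12, adjusted p = 4.11e-07).

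Within a library, the ratio of Ptgs2 to Ptgs1 counts needs no scaling. It averaged 0.0821 ± 0.0505 (SD, n = 3) in untreated astrocytes, 3.59 ± 0.363 with Aβ42 and 2.49 ± 0.581 with Aβ40 fibrils. In microglia it averaged 0.416 ± 0.105 untreated, 15.0 ± 6.08 with Aβ42 and 20.2 ± 1.23 with Aβ40. Without Aβ42 replicate 1 the Aβ42 average in microglia was 11.51. In both cell types each treated library lay above each control library, the fibril groups were apart in astrocytes, and they overlapped in microglia. The ratio carries transcript length and is read only between groups, with no test.

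**Figure D3:**
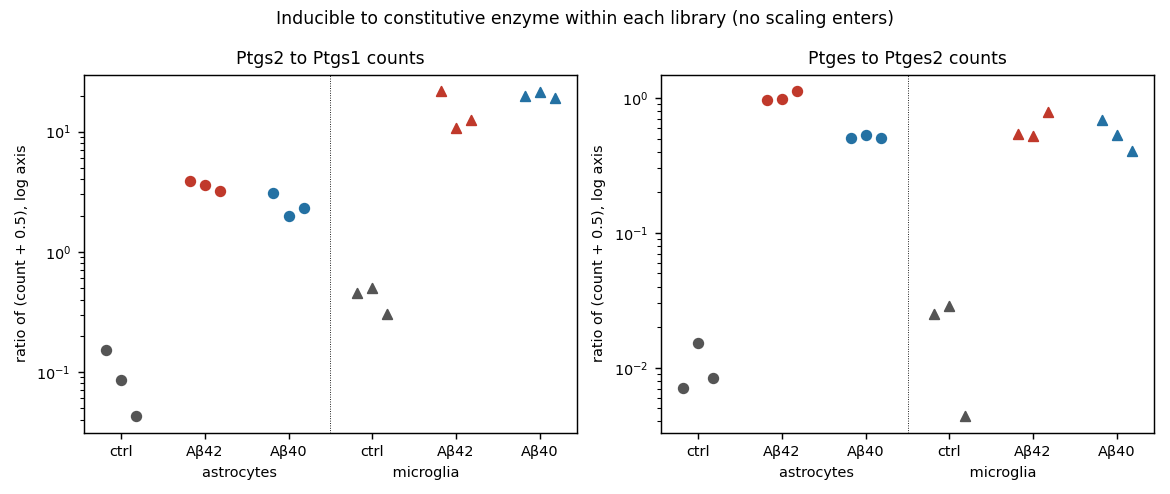
Ratio of Ptgs2 to Ptgs1 counts (left) and of Ptges to Ptges2 counts (right) in each library on a log axis, with 0.5 added to each count. Every fibril-treated library lies above every control library of its cell type in both panels.

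Ptges, the inducible PGE2 synthase that works with COX-2, was the member with the largest change in astrocytes. It was near the detection limit untreated, at 0.278, 0.479 and 0.492 CPM from 1, 2 and 7 counts. It reached 152, 158 and 148 CPM with Aβ42 and 64.6, 72.0 and 73.5 CPM with Aβ40 fibrils. The 3 groups were clear of each other, with log2 fold changes of 8.37 (SE 0.20, adjusted p = 1.66e-09) and 7.24 (SE 0.20, adjusted p = 3.58e-09). The pooled counts gave ratios of 336 (95% interval 183 to 702) and 156 (84.6 to 325). Untreated microglia had 4, 2 and 0 counts, 0.471, 0.386 and 0 CPM. Microglia values were 21.99, 30.9 and 48.1 CPM with Aβ42 and 26.5, 21.7 and 16.1 CPM with Aβ40. These libraries were all above control and the fibril groups overlapped, with log2 fold changes of 6.82 (SE 0.49, adjusted p = 2.69e-07) and 6.14 (SE 0.54, adjusted p = 1.95e-06) and pooled ratios of 126 (57.8 to 344) and 75.6 (34.2 to 208).

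Ptges2, another PGE2 synthase, rose by smaller amounts in both cell types. Astrocyte libraries held 58.4, 39.3 and 62.5 CPM untreated, 156, 161 and 132 CPM with Aβ42 and 128, 135 and 145 CPM with Aβ40. The log2 fold change was 1.48 (SE 0.17, adjusted p = 5.87e-05) and 1.34 (SE 0.17, adjusted p = 0.00013), with no overlap with control. Microglia went from 21.2, 16.8 and 17.4 CPM to 40.8, 58.9 and 61.3 CPM with Aβ42 and to 38.6, 40.7 and 40.5 CPM with Aβ40 (log2 fold change 1.56, SE 0.16, adjusted p = 5.47e-06, and 1.10, SE 0.17, adjusted p = 0.000211). The next coding gene in the RefSeq table is Lcn2, an acute-phase protein, which rose with both fibrils in astrocytes (log2 fold change 6.60 and 6.25) and microglia (5.75 and 5.92). Whether reads that run past Lcn2 enter the Ptges2 count was not tested. The ratio of Ptges to Ptges2 counts averaged 0.00828 ± 0.00373 (SD, n = 3) in untreated astrocytes, 1.03 ± 0.0874 with Aβ42 and 0.515 ± 0.0165 with Aβ40. In microglia it averaged 0.0151 ± 0.0131, 0.616 ± 0.146 and 0.539 ± 0.145.

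Of the PGD2 synthases, Ptgds (the lipocalin type, abundant in meninges and oligodendrocytes) was low in astrocytes at 1.67, 0.957 and 0.844 CPM untreated, 1.65, 1.62 and 1.80 CPM with Aβ42 and 1.45, 2.35 and 1.66 CPM with Aβ40. The groups overlapped and neither value passed (log2 fold change 0.70, SE 0.35, adjusted p = 0.148, and 0.85, SE 0.34, adjusted p = 0.0757); without control replicate 1 the Aβ40 value was 1.09 (adjusted p = 0.0385). In microglia it read 18.02, 22.8 and 18.9 CPM untreated, 49.98, 99.5 and 102 CPM with Aβ42 and 37.6, 42.7 and 34.0 CPM with Aβ40. The groups did not overlap, and replicate 1 was the lowest Aβ42 library (log2 fold change 2.12, SE 0.23, adjusted p = 9.08e-06, and 0.96, SE 0.24, adjusted p = 0.00725). Without replicate 1 the Aβ42 value was 2.35 (adjusted p = 1.49e-11). Olig1, a transcription factor of oligodendrocyte precursors, read 58.9 to 76.9 CPM in control, 60.4, 207 and 191 CPM with Aβ42 and 64.4 to 77.5 CPM with Aβ40. It was high in Aβ42 replicates 2 and 3 and near the control level in Aβ42 replicate 1 and with Aβ40. Olig1 is 1 of 8 oligodendrocyte lineage markers, which summed to 1963 to 2167, 2180 to 2833 and 2206 to 2666 CPM. Of these, 5 were higher and 1 lower with Aβ42, and 4 higher and 1 lower with Aβ40. The 8 fibroblast markers summed to 72.6 to 100, 186 to 221 and 166 to 181 CPM. Of 6 tested, 5 were higher with Aβ42 and 4 with Aβ40. The part of these cells in the rise of Ptgds was not tested.

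Hpgds, the haematopoietic PGD2 synthase known from microglia and mast cells, moved in opposite directions in the 2 cell types. Astrocyte values were 4.45, 6.22 and 4.71 CPM untreated, 3.36, 1.92 and 1.32 CPM with Aβ42 and 2.18, 0.909 and 1.26 CPM with Aβ40. All treated libraries lay below control, with log2 fold changes of -1.13 (SE 0.37, adjusted p = 0.0332) and -1.88 (SE 0.38, adjusted p = 0.00302). The Aβ42 call was lost without control replicate 1 or 3 (adjusted p = 0.0573 and 0.0656), without Aβ42 replicate 2 or 3 (0.106 and 0.0959), and without both libraries of the other name style (0.104). Microglia held 197, 161 and 219 CPM untreated, 474, 227 and 275 CPM with Aβ42 and 462, 416 and 500.1 CPM with Aβ40. Both fibril groups were above control, and Aβ42 replicate 1 lay with the Aβ40 libraries rather than with the other Aβ42 libraries. The log2 fold change was 0.74 (SE 0.23, adjusted p = 0.0151) with Aβ42 and 1.25 (SE 0.23, adjusted p = 0.000784) with Aβ40. Without Aβ42 replicate 1 the Aβ42 value fell to 0.38 (adjusted p = 0.0105), and without control replicate 2 it did not pass (0.64, adjusted p = 0.0667). In RefSeq the Hpgds gene overlaps Smarcad1, whose log2 fold change was -0.04 and -0.14 in astrocytes (adjusted p = 0.912 and 0.647) and -0.58 (adjusted p = 0.00395) and -0.10 (adjusted p = 0.607) in microglia.

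Tbxas1, thromboxane A synthase, showed the same opposition with little spread. In astrocytes it was at 25.9, 19.6 and 31.0 CPM untreated, 9.82, 9.81 and 8.77 CPM with Aβ42 and 5.20, 5.46 and 5.91 CPM with Aβ40. The 3 groups did not overlap, and the log2 fold change was -1.44 (SE 0.18, adjusted p = 9.2e-05) and -2.22 (SE 0.19, adjusted p = 4.89e-06). Microglia went up, from 79.3, 85.0 and 89.1 CPM to 164, 207 and 221 CPM with Aβ42 and to 150, 147 and 169 CPM with Aβ40. Every treated library was above control, with log2 fold changes of 1.23 (SE 0.12, adjusted p = 4.9e-06) and 0.88 (SE 0.13, adjusted p = 0.000127). Tbxas1 overlaps Parp12 in RefSeq, a gene not analysed here.

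In the leukotriene branch, Alox5 stayed at a few counts a library. Astrocytes had 10, 7 and 24 counts untreated (2.78, 1.68 and 1.69 CPM), 14, 10 and 13 with Aβ42 (0.961, 1.01 and 1.56 CPM) and 8, 31 and 21 with Aβ40 (0.831, 1.66 and 1.39 CPM). The treated libraries lay below the control libraries in CPM but neither value passed (log2 fold change -0.74, SE 0.37, adjusted p = 0.14, and -0.50, SE 0.34, adjusted p = 0.293). Microglia had 8, 6 and 7 counts untreated, 1, 8 and 6 with Aβ42 and 4, 2 and 4 with Aβ40, too few for the test. The pooled counts gave a ratio to control of 0.335 (95% interval 0.161 to 0.682) for Aβ42 and 0.892 (0.375 to 1.98) for Aβ40.

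Alox5ap, the partner of Alox5, fell furthest of the members in both cell types. Untreated astrocytes held 5.29, 4.07 and 2.32 CPM from 19, 17 and 33 counts. The Aβ42 libraries had 1, 1 and 0 counts and the Aβ40 libraries 1, 0 and 1, all at or under the detection limit. Control was higher by a pooled count ratio of 51.4 (95% interval 13.7 to 433) than Aβ42 and 68.1 (18.1 to 573) than Aβ40, and the fitted log2 fold changes were -5.60 (SE 0.65, adjusted p = 5.63e-05) and -5.92 (SE 0.63, adjusted p = 3.16e-05). In microglia the transcript was still found, at 56.1, 39.6 and 59.8 CPM untreated, 8.80, 7.54 and 9.12 CPM with Aβ42 and 8.20, 9.84 and 6.89 CPM with Aβ40. The treated groups overlapped each other and lay far below control (log2 fold change -2.63, SE 0.18, adjusted p = 1.83e-07, and -2.61, SE 0.20, adjusted p = 6.97e-07).

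The 3 members that fell in astrocytes moved together with microglial markers in those cultures. Of the other members higher in untreated microglia than in untreated astrocytes, Ptgs1, Ptgds and Pla2g4a did not pass in astrocytes with either fibril, and Ptgs2 rose. The summed level of the 8 microglial markers was 238 to 279 CPM in untreated astrocyte cultures, 18.02 to 23.1 CPM with Aβ42 and 14.2 to 16.9 CPM with Aβ40, and 8 of 8 markers were down-regulated with each fibril. Cx3cr1 counts were 90, 143 and 267 in the control libraries, 1, 0 and 0 with Aβ42 and 0, 1 and 1 with Aβ40. Other markers stayed above the detection limit: 2 to 3 of the 8 were at or under 3 counts in each treated astrocyte library. Aif1 had 64 to 335 counts in control, 15 to 51 with Aβ42 and 21 to 42 with Aβ40. The part of microglia in the astrocyte values of Hpgds, Tbxas1 and Alox5ap was not tested, and in bulk RNA fewer cells of a type and less RNA per cell cannot be told apart. In the microglia cultures the same marker sum went from 5053 to 5817 CPM down to 1336 to 1710 CPM with Aβ42 and 1705 to 1915 CPM with Aβ40, with 6 and 7 of 8 markers lower, while Hpgds and Tbxas1 rose there.

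**Figure D4:**
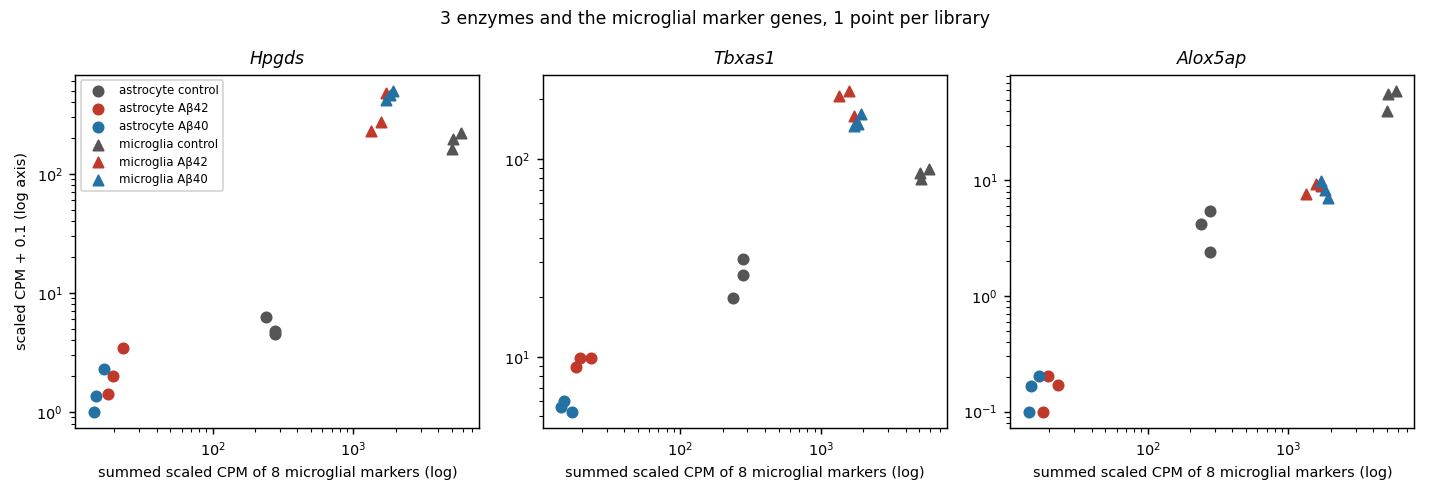
Scaled CPM of Hpgds, Tbxas1 and Alox5ap (plus 0.1) against the summed scaled CPM of 8 microglial markers, both on log axes, 1 point per library. Treated astrocyte libraries (red and blue circles) sit at the lower left in all panels, while treated microglia (triangles) have lower marker sums than untreated microglia but higher Hpgds and Tbxas1.

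Compared directly, the fibrils differed in 1 member in astrocytes, where 0.0855% of genes passed: Ptges was higher with Aβ42 than with Aβ40 by 1.12 on the log2 scale (SE 0.12, adjusted p = 0.0072). The size of this difference was steady (1.07 to 1.16 when any of the 6 compared libraries was left out), but the call was not. It passed without Aβ42 replicate 1 (adjusted p = 0.0499) and did not without Aβ42 replicate 2 or 3 (0.101 and 0.0595) or Aβ40 replicate 1, 2 or 3 (0.0832, 0.0581 and 0.0666), and these 6 fits called 0 to 4 genes in all. With every library kept, the call held by DESeq2 (adjusted p = 2.8e-17) and by edgeR on the compared groups alone (0.00138). It also held by edgeR with DESeq2 size factors (0.00603), library totals alone (0.00926) or no filter on low counts (0.00428). A block for the replicate number lost the call (0.101), and leaving out both libraries of the other name style kept it (0.000816). Ptgs2, Pla2g4a and Tbxas1 were also higher with Aβ42 in each library, by 0.69 (95% interval 0.29 to 1.10), 0.73 (0.26 to 1.20) and 0.78 (0.36 to 1.19), without passing over all genes (adjusted p = 0.26, 0.338 and 0.208). With Ptges these are the 4 members whose fibril groups did not overlap, where 18.9% of genes did not. In an edgeR fit of the compared groups alone, Ptgs2, Pla2g4a and Tbxas1 passed (adjusted p = 0.0464, 0.0146 and 0.0154), where 2.31% of genes did. Without both libraries of the other name style Pla2g4a and Tbxas1 passed (0.0377 and 0.0308), where 1% of genes did. By DESeq2 only Tbxas1 of these passed (0.0359), where 1.21% of genes did.

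In microglia the fibrils differed in 2 of 9 members, where 20.3% of genes passed. Ptgds was higher with Aβ42 by 1.16 (SE 0.23, adjusted p = 0.0136) and Pla2g4a lower, at -0.60 (SE 0.18, adjusted p = 0.0383). Aβ42 replicates 2 and 3 had 22274367 and 17687416 counts on genes, the Aβ40 libraries 4104702, 4425805 and 2271834, and Aβ42 replicate 1 had 2613723. Without replicate 1, fibril and sequencing depth therefore cannot be told apart. This comparison turned on Aβ42 replicate 1. Without it 53.8% of all tested genes passed in place of 20.3%, and 7 of 9 members did: Ptges (0.82, adjusted p = 0.00343), Ptges2 (0.59, 0.000228), Ptgds (1.38, 1.68e-07) and Tbxas1 (0.47, 0.000299) were higher with Aβ42, and Ptgs2 (-0.63, 0.0011), Hpgds (-0.87, 2.99e-05) and Pla2g4a (-0.81, 8.04e-05) were lower. Leaving out any other of the 6 compared libraries left 0 members past the threshold by edgeR, where 0.905% to 1.38% of all genes passed, with adjusted p between 0.0507 and 0.0722 for Ptgds and between 0.0815 and 0.15 for Pla2g4a. With all libraries 3 members, Ptges2, Ptgds and Pla2g4a, had no overlap between the fibrils, where 29.3% of genes had none. Ptgs1 differed by 0.19 (95% interval -0.065 to 0.44) and Alox5ap by -0.03 (-0.52 to 0.47).

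**Figure D5:**
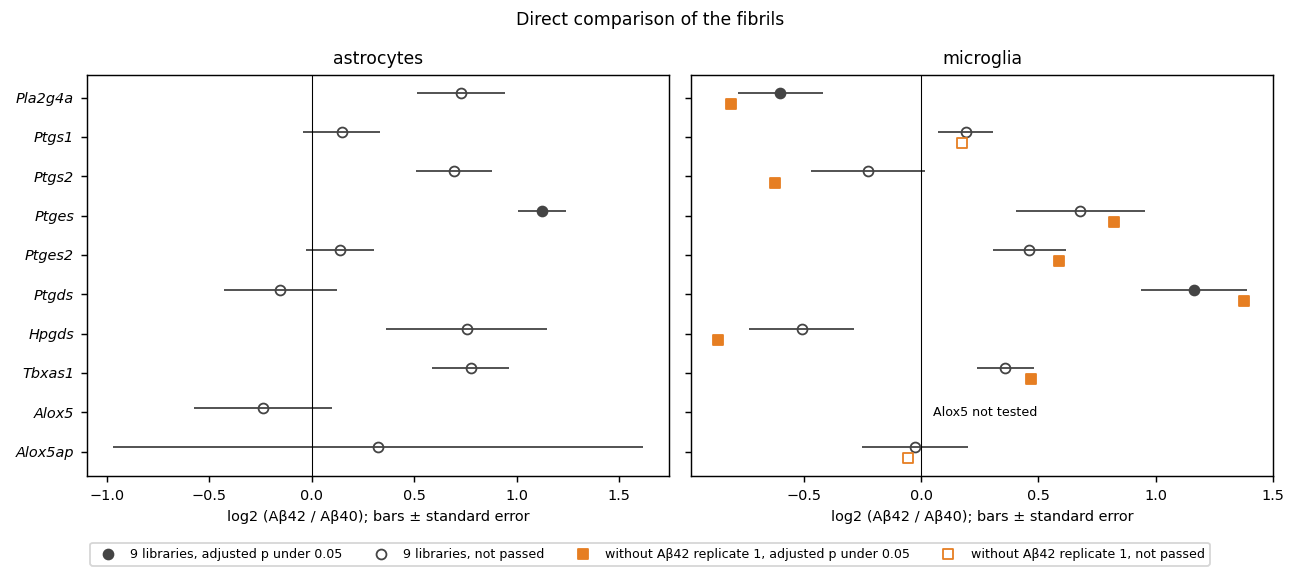
Log2 ratio of Aβ42 to Aβ40 for each member, with its standard error, in astrocytes (left) and microglia (right), filled where the adjusted p was under 0.05. Orange squares show the microglia values without Aβ42 replicate 1, where 7 members passed in place of 2 while the share over all genes went from 20.3% to 53.8%. In the orange values fibril and sequencing depth cannot be told apart.

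The response itself differed between the cell types in 5 of the 10 members for each fibril, by an interaction test over 18 libraries, where 37.3% of 11581 genes passed for Aβ42 and 32.5% for Aβ40. Ptgs1, Hpgds, Tbxas1 and Alox5ap differed with both fibrils, and in each the microglial value was the higher. For Hpgds, Tbxas1 and Alox5ap the astrocyte cultures lost microglial markers alongside, as given above. The part of microglia in these differences was not tested. For Tbxas1 the difference of log2 fold changes, microglia minus astrocytes, was 2.68 (SE 0.22, adjusted p = 1.78e-08) with Aβ42 and 3.08 (SE 0.22, adjusted p = 4.48e-09) with Aβ40. Ptgs2 differed with Aβ40 (2.53, SE 0.76, adjusted p = 0.0146), a call that was lost without astrocyte control replicate 1 (2.23, adjusted p = 0.079), and with Aβ42 it did not pass (1.61, SE 0.72, adjusted p = 0.087) except without microglia Aβ42 replicate 2 (1.85, adjusted p = 0.0242) or by DESeq2 (adjusted p = 0.0101). The Ptgds difference with Aβ42 (1.40, SE 0.52, adjusted p = 0.0432) held without microglia Aβ42 replicate 1 (1.64, adjusted p = 0.00186). It was lost without each of 10 other libraries (adjusted p = 0.0558 to 0.105), namely any astrocyte control or Aβ42 library, microglia control replicate 1 or 3, and microglia Aβ42 replicate 2 or 3. For Pla2g4a the Aβ42 difference of -0.73 (adjusted p = 0.0549) passed without astrocyte control replicate 2 (-1.07, adjusted p = 0.00144) or microglia Aβ42 replicate 1 (-0.93, adjusted p = 0.0107), and the Aβ40 difference of 0.59 (adjusted p = 0.134) passed without astrocyte control replicate 3 (0.82, adjusted p = 0.0336). The Ptges2 responses were not shown to differ, with a difference of 0.08 (95% interval -0.43 to 0.59) for Aβ42 and -0.25 (-0.78 to 0.27) for Aβ40. The Ptges difference did not pass either, at -1.54 (-3.56 to 0.48) and -1.10 (-3.10 to 0.90).

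Before treatment the cell types already differed in 8 of 10 members, where 68.8% of genes passed. Ptgs1, Ptgs2, Ptgds, Hpgds, Pla2g4a, Tbxas1 and Alox5ap were higher in microglia, 7 members where 34.2% of genes were higher, and Ptges2 was lower, where 34.5% were lower. On the common scale of 18 libraries, Hpgds averaged 214 ± 32.03 CPM (SD, n = 3) in microglia and 4.79 ± 0.908 CPM in astrocytes, a log2 difference of 5.504 (SE 0.31, adjusted p = 8.79e-12). The log2 differences of Ptgs2, Ptgds, Alox5ap and Pla2g4a were 4.77, 4.51, 4.17 and 4.01, and those of Ptgs1 and Tbxas1 were 2.07 and 1.96. Ptges2 was lower in microglia at -1.28 (SE 0.18, adjusted p = 3.51e-06). Ptges and Alox5 did not pass (-0.34, adjusted p = 0.733, and -0.62, adjusted p = 0.159); with library totals alone, which shifted the median of all genes by -0.28 in this comparison, Alox5 passed at -0.90 (adjusted p = 0.0408).

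Across the 6 groups on that scale, Ptgs2 ran from 0.629 ± 0.363 CPM (SD, n = 3) in untreated astrocytes through 14.3 ± 3.10 CPM in Aβ40 astrocytes, 14.4 ± 3.35 CPM in untreated microglia and 23.04 ± 0.563 CPM in Aβ42 astrocytes to 1925 ± 797 CPM in Aβ42 and 2240 ± 54.9 CPM in Aβ40 microglia. Untreated microglia and Aβ40 astrocytes did not differ beyond their spread, nor, with all libraries, did the treated microglia groups. Without Aβ42 replicate 1, where fibril and depth cannot be told apart, microglial Ptgs2 was lower with Aβ42 (log2 difference -0.63, adjusted p = 0.0011 by edgeR). Ptges had the other order. It was highest in Aβ42 astrocytes (145 ± 3.84 CPM), then Aβ40 astrocytes (66.2 ± 3.73 CPM), Aβ42 microglia (38.0 ± 15.6 CPM) and Aβ40 microglia (23.8 ± 5.95 CPM), with untreated astrocytes (0.389 ± 0.110 CPM) and untreated microglia (0.319 ± 0.280 CPM) near the detection limit. The treated microglia groups overlapped, and so did the untreated groups.

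Other genes of the pathway were read from a list of 41 enzymes and transporters, of which 39 were present and 26 passed the filter on low counts in each cell type. In astrocytes 6 rose and 4 fell with Aβ42, and 5 rose and 2 fell with Aβ40, 10 and 7 of 26 where 37% and 33.3% of all genes passed. Pla2g2a, a secreted phospholipase of the acute phase, had 0 counts in the 3 control libraries, 237, 157 and 133 counts with Aβ42 and 148, 320 and 229 with Aβ40, at least 27.3-fold higher with Aβ42 and 27.04-fold higher with Aβ40 against 3 counts in each control library. Pla2g16 and the prostaglandin exporter Abcc4 also rose (log2 fold change 2.00 and 1.90, and 0.93 and 0.85), as did the leukotriene exporter Abcc1 (0.88 and 0.97) and, with Aβ42, Mgst2 (1.87). Pla2g7, which degrades platelet-activating factor, fell (-2.18 and -2.09), the prostaglandin reductase Ptgr2 fell by less (-0.42 and -0.34), and with Aβ42 so did Alox12 (-1.03) and Hpgd (-0.85), which inactivates prostaglandins.

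In microglia 11 of these 26 rose and 7 fell with Aβ42, and 9 rose and 6 fell with Aβ40, 18 and 15 of 26 where 53.7% and 41% of all genes passed. Pla2g2a went from 1, 0 and 0 counts to 195, 1085 and 890 with Aβ42 and 238, 298 and 131 with Aβ40, pooled ratios of 1017 (95% interval 182 to 40210) and 1250 (224 to 49440). Akr1b1, an aldose reductase that can also make PGF2α, rose (log2 fold change 3.06 and 1.58). Pla2g7 rose here (2.40 and 1.63), opposite to astrocytes. Pla2g12a (1.55 and 1.23) and Pla2g5 (1.30 and 1.53), both secreted phospholipases, rose with each fibril. Alox15, which makes 12- and 15-hydroperoxides, fell from 472, 342 and 475 counts to 3, 9 and 15 with Aβ42 and 4, 3 and 1 with Aβ40 (log2 fold change -6.63, SE 0.25, adjusted p = 1.4e-09, and -6.42, SE 0.31, adjusted p = 8.45e-09). The lysosomal phospholipase Pla2g15 (-2.12 and -2.71), the diacylglycerol lipase Daglb (-2.50 and -2.67) and Lta4h, which makes leukotriene B4 (-0.87 and -1.01), also fell.

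Of 15 listed receptors 14 were present, 5 were tested in astrocytes and 3 in microglia. In astrocytes the PGF2α receptor Ptgfr (log2 fold change 3.01 and 3.12) and the PGE2 receptor Ptger2 (1.56 and 1.34) rose with Aβ42 and Aβ40, the PGE2 receptor Ptger3 fell (-1.22 and -0.75), and the thromboxane receptor Tbxa2r did not pass. The prostacyclin receptor Ptgir rose from 0, 0 and 1 counts to 97, 43 and 24 with Aβ42 and 28, 77 and 48 with Aβ40, pooled ratios of 110 (95% interval 19.5 to 4370) and 77.6 (13.7 to 3083). In microglia Ptger2 rose from 11.4, 7.73 and 13.1 CPM to 139, 151 and 163 CPM with Aβ42 and 135, 136 and 123 CPM with Aβ40 (log2 fold change 3.79, SE 0.16, adjusted p = 2.78e-09, and 3.59, SE 0.16, adjusted p = 5.51e-09). Ptgir rose from 2, 0 and 0 counts, with pooled ratios of 31.9 (8.66 to 266) and 32.8 (8.43 to 281), and Ptger4 did not pass (0.02 and 0.33).

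Over the 18 libraries the genes whose log2(CPM + 1) was most like that of Ptgs2 were the macrophage protease Mmp12 (Pearson r = 0.993), the cytokine Csf2 (0.992) and the activation marker Cd69 (0.992). Those most like Ptges were the chemokine Cxcl11 (0.985), complement factor B (Cfb, 0.981) and Apol9a (0.98), and those most like Ptgs1 were Havcr2 (0.995), Sephs2 (0.994) and Glycam1 (0.993). These values describe libraries that differ in cell type and treatment together.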

How the data were processed

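RNA of 18 libraries (TruSeq stranded mRNA) was analysed from the deposited tables, in which the authors give the count of reads on each gene symbol, in whole reads and without normalization. The submitters' processing notes name STAR, Salmon, DESeq2 and build rn5; versions and the counting and strand settings are not given in the sources used here. Reads on no gene or on several (26.0% to 34.2% of a library in astrocytes and 21.7% to 24.5% in microglia) were left out.

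Counts were scaled by TMM and filtered by filterByExpr in edgeR 4.0.16 (R 4.3.3), and the 9 libraries of a cell type were fitted together by glmQLFit. Comparisons used glmQLFTest, and p-values were adjusted after Benjamini and Hochberg over every gene of the fit, with a threshold of 0.05. The interaction of cell type and treatment, and the untreated cell types, were tested in 1 fit of 18 libraries over 16704 symbols in both tables. The procedure was checked on simulated counts with large planted changes in genes of ample counts. This check does not cover low counts, small changes or an outlying library. Pooled count ratios carry exact 95% intervals, and log2 differences carry 95% intervals from their SE and the t quantile at the degrees of freedom of the fit. Alternatives were DESeq2 1.42.0 and its size factors, library totals, other filters, fits of the compared groups, a block for the replicate number, and fits without 1 library or without the 2 libraries of another name style.

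The members and gene lists were chosen with earlier results of these data known. Named genes were every member, of each further list up to 4 genes with the smallest p-value per direction and comparison with control among those that passed, every receptor that passed, and for Ptgs2, Ptges and Ptgs1 the 3 genes most correlated with it. The markers Olig1, Cx3cr1 and Aif1 were picked outside this rule, and Lcn2, Smarcad1 and Parp12 were named as gene neighbours. Sequences and gene neighbours come from RefSeq GRCr8 by symbol: all 10 members matched a gene and 7 a promoter sequence. No 2 replicates agreed within sampling noise.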

Additional observations from a re-analysis of the deposited data

Results flagged for a closer look

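The response to the fibrils differed between the cell types in these members, by the interaction test of edgeR over 18 libraries with Benjamini-Hochberg adjustment. Each value is the difference of log2 fold changes, microglia minus astrocytes, and each was positive. With Aβ42 fibrils it was 2.25 for Ptgs1 (adjusted p = 2.13e-07), 1.40 for Ptgds (0.0432), 1.84 for Hpgds (0.00258), 2.68 for Tbxas1 (1.78e-08) and 2.90 for Alox5ap (0.00499). With Aβ40 fibrils it was 2.20 for Ptgs1 (3.37e-07), 2.53 for Ptgs2 (0.0146), 3.13 for Hpgds (2.72e-05), 3.08 for Tbxas1 (4.48e-09) and 3.21 for Alox5ap (0.00217). For Hpgds and Tbxas1 the members rose in microglia and fell in astrocytes, and for Alox5ap they fell in both. In the astrocyte cultures these members fell alongside the microglial markers, and the part of microglia in their values was not tested. The fitted Alox5ap values rest on astrocyte groups with 2 counts each.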

How the results depend on the processing

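Of the counts of members past the threshold, 110 stayed within 1.5 times of the reported count under the alternatives and 23 did not. Of the members' log2 fold changes, 1169 kept direction and side of the threshold, 43 fell back over it, 29 passed it and 15 changed sign. A filter of 10 counts in every library leaves fewer members to test, and members called went to 3, 3 and 0 in the astrocyte comparisons (Aβ42, Aβ40, Aβ42 against Aβ40), to 3 for each response difference and to 5 for the untreated cell types. For Aβ42 against Aβ40 in astrocytes the count was 0 with the replicate block, 2 by DESeq2, 4 in a fit of the compared groups, 3 without the 2 libraries of the other name style, and 0 to 1 when a library was left out. In microglia it was 1 with the replicate block, 0 in a fit of the compared groups, and 0 to 7 when a library was left out. Except for the block and the left-out libraries named here, the cause was not tested.

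Deviations of same-numbered libraries from their group mean correlated at -0.641 to 0.436 in astrocytes, over 0.1 in 2 of 9 pairs, and at -0.221 to 0.264 in microglia, in 1 of 9. Whether replicate numbers pair the libraries cannot be settled from these values, because deviations within a group of 3 must offset each other. Some differently numbered astrocyte libraries correlated more. Control replicate 2 did so with Aβ42 replicate 3 (0.616) and Aβ40 replicate 1 (0.565), and Aβ42 replicate 3 with Aβ40 replicate 1 (0.619). Aβ42 replicate 1 correlated with Aβ40 replicate 2 at 0.614. A block for the replicate number does not follow this grouping, and its cause was not tested. With the block, Ptges in astrocytes (adjusted p = 0.101) and Pla2g4a in microglia (adjusted p = 0.0544) no longer differed between the fibrils past the threshold, and no other member call changed.

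All sign changes came from leaving out 1 library, in values that had not passed, and the cause was not tested. Each is given with the full range over the left-out libraries. For Aβ42 against Aβ40 in astrocytes, Ptgds ran from -0.268 to 0.0963 (without Aβ40 replicate 2), and Alox5ap from -0.355 (without Aβ40 replicate 2) to 0.814, with -0.0783 without Aβ42 replicate 2. In microglia, Pla2g4a with Aβ40 against control ran from -0.0083 (without Aβ40 replicate 3) to 0.204. Between the fibrils, Ptgs2 ran from -0.627 to 0.0197 (without Aβ42 replicate 2), and Alox5ap from -0.115 to 0.121 (without Aβ40 replicate 2), with 0.0845 without Aβ42 replicate 2. The Aβ42 response difference of Ptges2 ran from -0.0529 (without astrocyte control replicate 3) to 0.259, with -0.0347 without microglia Aβ42 replicate 3. The Aβ40 response difference of Ptgds ran from -0.13 (without astrocyte control replicate 1) to 0.407, with -0.0225 without astrocyte Aβ40 replicate 1, -0.00397 without microglia control replicate 1 and -0.0346 without microglia Aβ40 replicate 2, and that of Alox5 from -0.0866 (without microglia Aβ40 replicate 3) to 0.769. The untreated difference of Ptges ran from -1.09 to 0.214 (without microglia control replicate 3). Depth limited Alox5, Alox5ap in treated astrocytes and Ptges in control libraries.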
